A study of Mus musculus with 6 samples.

Results

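The tetraspanin genes of mouse CD8+ T cells were described in 6 bulk RNA sequencing libraries. The list held 10 genes, Tspan32, Cd81, Cd9, Cd37, Cd53, Cd63, Cd82, Cd151, Tspan13, and Tspan31, of 57126 genes in the count table and of 31 tetraspanin genes found in it. The genes were selected on the same contrast that is described here, with its results known, so their differences between the groups are given as values with a standard error and carry no test. All 10 passed the filter on low counts (at least 1 count in at least 3 samples), and 8 had at least 10 counts in every sample. The cells were OT-I CD8+ T cells, which carry a transgenic receptor for an ovalbumin peptide, from spleen and lymph nodes of mice bred by the laboratory. The cells of all 6 samples were stimulated with nano-aAPCs and harvested on day 6. Nano-aAPCs are dextran-coated iron oxide particles that present the ovalbumin peptide on H-2Kb beside an antibody against CD28. TEff cells (n = 3) received IL-2 alone, and TRM-like cells (n = 3) received IL-2 together with IL-15 and TGF-β. The IL-2 is named as the mouse protein for the sequenced cells and as the human protein in the expansion methods. Both groups were expanded in culture and no tissue-resident cell from an animal was sequenced, so TRM-like is a culture condition. Ages are not given, nor whether the 3 replicates came from separate animals or cultures, so p-values measure only the spread between these samples.

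Tetraspanins are small proteins that cross the membrane repeatedly and gather integrins, immunoglobulin-family proteins, and receptors into patches of the plasma membrane. They bind little ligand of their own and work through the partner that each holds next to itself. In T cells, Cd81, Cd9, and Cd82 are known as costimulatory molecules, Cd37 and Tspan32 (also called Tssc6) as brakes on proliferation, and Cd53 as a pan-leukocyte member. Cd63 sits in late endosomes and cytotoxic granules, and Cd151 holds laminin-binding integrins.

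The libraries held 18319013 to 23622621 counts on genes. TRM-like replicate 3 stood apart from the other TRM-like samples. With counts compared over 14822 genes, each at 10 or more counts per sample, the chi-square per gene (about 1 for a pair that differs by counting noise alone) was 7.26 between TRM-like replicates 1 and 2, 96.3 and 112 between each of them and replicate 3, and 3.73 to 26.1 among TEff samples. TRM-like replicate 3 was nearer to TEff replicates 3 and 1, at 37.4 and 41.9, than to either sample of its own group. Among TEff samples, replicate 2 lay apart, at 26.1 and 25.4 from replicates 1 and 3, which were 3.73 from each other. TEff replicate 2 was also the TEff sample nearest to TRM-like replicates 1 and 2, at 54.3 and 68.9. At least 1 count was found on 35130 and 35559 genes in TRM-like replicates 1 and 2, and on 24229 to 24908 in the other 4. Values that depend on TRM-like replicate 3 are therefore also given without it. This sample was left out after its counts were seen, so adjusted p-values from that fit are descriptions and not independent tests. The CD8 T cell markers Cd3d, Cd3e, Cd3g, Cd8a, and Cd8b1 summed to between 1660 and 1760 CPM (counts scaled to a common effective library size) in TEff samples and between 2300 and 3220 CPM in TRM-like samples, and Cd4 was at most 0.111 CPM. The summed B cell markers reached 10.4 CPM, those of macrophages 4.5 CPM, and those of platelets, which carry much Cd9 and Tspan9, 0.995 CPM. Stromal and endothelial markers summed to between 46.6 and 63.9 CPM in TEff and between 19.5 and 41.3 CPM in TRM-like samples, nearly all of it Pecam1 (46.0 to 63.0 and 19.3 to 40.7 CPM), an adhesion molecule that T cells carry too. In bulk samples, fewer cells with a transcript and less transcript per cell cannot be told apart.

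Over all 26154 genes tested with edgeR's quasi-likelihood test, 3.01% passed the threshold, which asks for an adjusted p under 0.05 together with a log2 fold change beyond 0.58 in either direction. By direction, 1.52% were higher and 1.48% lower in TRM-like cells. With TRM-like replicate 3 left out, 14.0% of 25478 genes tested passed, and adjusted p-values from that fit stand beside this share. The 3 samples of a group lay all above those of the other in 10.6% of genes for TRM-like and all below in 9.71%. Of the 10 listed genes, 2 passed, both lower in TRM-like cells, and these are the genes that led to the list. The TRM-like samples lay all below the TEff samples for 4 genes, Tspan32, Cd81, Cd53, and Cd82, all above for Tspan13, and overlapped for the other 5. The median log2 fold change (TRM-like over TEff) of the 10 was -0.12, against 0.02 over all genes tested.

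Tspan32 (ENSMUSG00000000244, chr7:142558783-142573381 on the plus strand of GRCm39) is a tetraspanin of blood cells. Its level was 53.8, 48.5, and 58.4 CPM in TEff replicates 1, 2, and 3. In TRM-like replicates 1, 2, and 3 it was 5.32, 5.90, and 3.64 CPM. The lowest TEff sample lay far above the highest TRM-like sample. The means were 53.5 ± 4.99 and 4.95 ± 1.17 CPM (SD, n = 3 each), 10.8-fold lower in TRM-like cells, with a log2 fold change of -3.43 ± 0.20 (standard error). Over 14 alternative settings the log2 fold change ranged from -3.58 to -3.26, the latter without TRM-like replicate 3.

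Cd81 (ENSMUSG00000037706, chr7:142606314-142621672 on the plus strand) is part of the B cell coreceptor and acts as a costimulator on T cells. It was measured at 12.7, 7.14, and 13.4 CPM in the TEff samples, from 277, 141, and 243 counts. In the TRM-like samples it was 0.262, 0.218, and 0.184 CPM, from only 6, 5, and 4 counts. The TRM-like values sat just above the 0.131 to 0.138 CPM that a count of 0 would still allow at these depths. The group means were 11.1 ± 3.43 and 0.222 ± 0.0387 CPM, and the log2 fold change was -5.60 ± 0.36. The ratio of the summed counts was 49.8 in favor of TEff, with an exact 95% interval of 30.0 to 89.5 that covers counting error only. TEff replicate 2 lay well below the other TEff samples, yet far above every TRM-like sample.

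**Figure D1:**
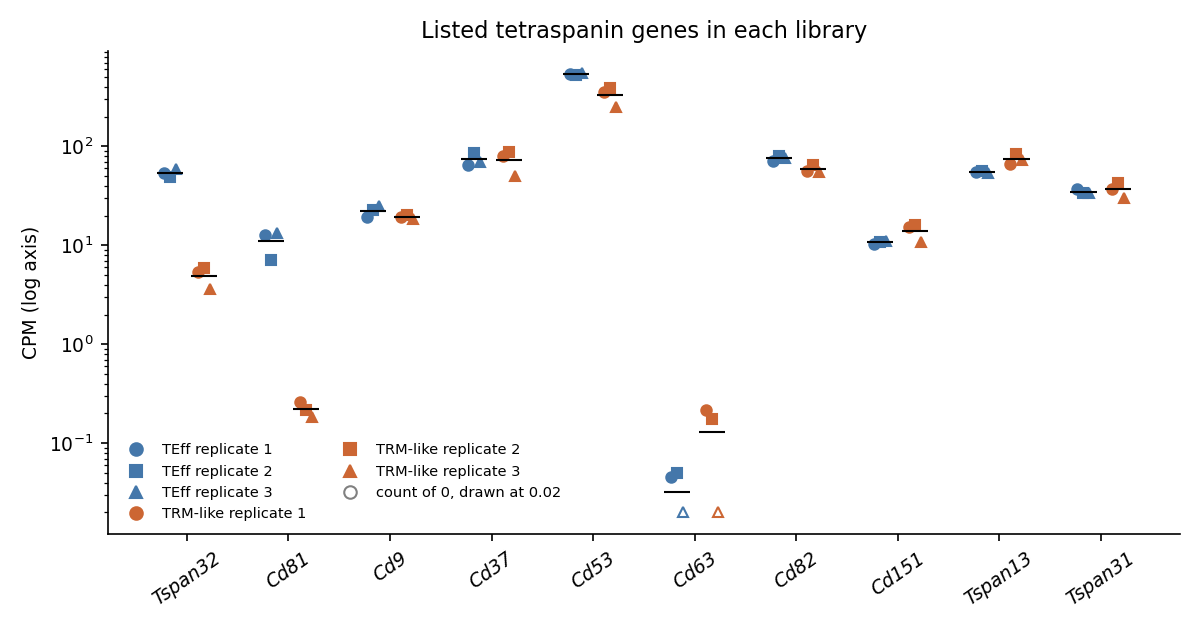
Level of each listed tetraspanin gene in CPM on a log axis, with TEff samples in blue, TRM-like samples in orange, a marker shape for each replicate, and a black bar at each group's mean. Tspan32 and Cd81 show wide gaps between the groups (53.5 against 4.95 CPM and 11.1 against 0.222 CPM), while Cd53, the highest gene, and the others differ by far less, and the 2 samples with no Cd63 count are drawn as open markers at 0.02.

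Tspan32 and Cd81 are neighbors on chromosome 7, in the same orientation and 32932 bases apart, and their upstream sequences are shown because these genes had the widest gaps of the list. Cd9 is shown as a listed gene whose groups overlapped, and Tspan9, a tetraspanin outside the list that is described further on, was added after its values were seen. Each sequence ends at the base before the start of the canonical GENCODE transcript, 5′ to 3′ on the strand of the gene, and was read from GRCm39. The windows searched were 250 bases long, and the first 80 bases of Tspan32 and 166 bases of Cd81 are left out because another transcript's untranslated exon lies in them. Capitals mark matches on either strand to CAGAC (the SMAD-binding CAGA box), TGTGGT (the core bound by RUNX factors), or GGGCGG (the GC box). The printed stretches are chr7:142559205-142559374 for Tspan32, chr7:142606382-142606465 for Cd81, chr6:125471779-125472028 on the minus strand for Cd9, and chr6:128120555-128120804 on the minus strand for Tspan9.
Tspan32: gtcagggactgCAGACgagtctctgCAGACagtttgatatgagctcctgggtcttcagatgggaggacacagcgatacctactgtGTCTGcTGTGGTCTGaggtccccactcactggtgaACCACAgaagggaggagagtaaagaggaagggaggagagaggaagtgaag
Cd81: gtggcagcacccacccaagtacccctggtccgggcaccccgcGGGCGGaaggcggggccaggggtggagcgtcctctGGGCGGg
Cd9: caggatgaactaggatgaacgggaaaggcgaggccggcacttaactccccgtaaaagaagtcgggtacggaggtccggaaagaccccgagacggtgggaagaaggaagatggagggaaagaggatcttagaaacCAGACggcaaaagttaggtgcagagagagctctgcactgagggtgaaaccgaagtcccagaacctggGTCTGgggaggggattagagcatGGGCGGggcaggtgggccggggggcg
Tspan9: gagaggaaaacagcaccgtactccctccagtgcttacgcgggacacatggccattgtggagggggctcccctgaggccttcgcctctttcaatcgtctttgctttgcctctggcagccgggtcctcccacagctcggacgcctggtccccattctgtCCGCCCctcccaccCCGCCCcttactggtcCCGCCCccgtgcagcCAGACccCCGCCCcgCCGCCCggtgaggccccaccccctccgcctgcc

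The Tspan32 window held 4 matches to CAGAC, at 159, 145, 85, and 75 bases before the start, and the last of these overlaps 1 of its 2 TGTGGT matches, at 79 bases. It held no GC box and 3 CpG dinucleotides, against a median of 8 over the windows of 21757 protein-coding genes. The Cd81 window held no CAGAC or TGTGGT match, 2 GC boxes at 42 and 7 bases, and 14 CpG dinucleotides. Cd9, at 14 CpG dinucleotides, had both CAGAC, with 2 matches, and a GC box, and Tspan9 had 5 GC boxes, 1 CAGAC match, and 17 CpG dinucleotides. Over all 10 listed genes, CAGAC was found in 4 windows (Tspan32, Cd9, Cd53, and Cd151), where 41.4% of all windows hold it. TGTGGT was found in 3 (Tspan32, Cd53, and Cd82), against 13.0% of all windows, and the GC box in 6, against 36.3%. No listed gene held TGANTCA, the AP-1 site (6.18% of all windows), or AGGTGTGA, the T-box site (0.961%). These are matches of letters on either strand and were not tested as binding sites.

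**Figure D2:**
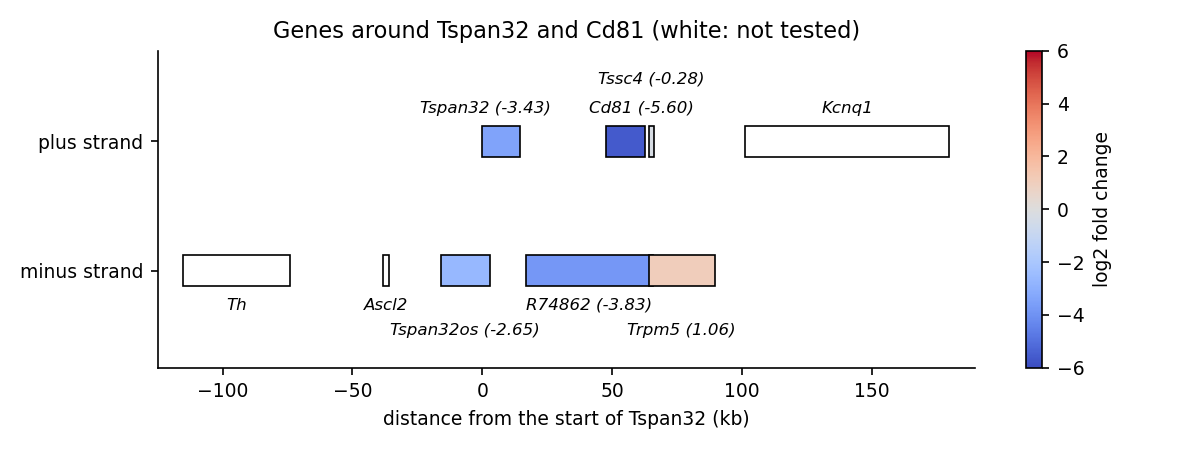
Genes around Tspan32 and Cd81 drawn to scale by strand, with distance from the start of Tspan32 in kb on the horizontal axis, the log2 fold change (TRM-like over TEff) as color and in brackets, and untested genes in white; Kcnq1 runs on past the right edge. Tspan32 (-3.43), Cd81 (-5.60), and the antisense genes Tspan32os (-2.65) and R74862 (-3.83) were all lower in TRM-like cells. Tssc4 (-0.28, and -0.43 without TRM-like replicate 3), directly beyond Cd81, differed by far less.

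The surroundings of the pair, read after the values of both genes were known, did not follow it as a whole. Tssc4, a gene of spliceosome assembly that starts 1193 bases past the end of Cd81, was at 23.0, 16.8, and 21.6 CPM in TEff samples and 14.8, 15.8, and 19.8 CPM in TRM-like samples. These groups overlapped, with a log2 fold change of -0.28 ± 0.18 (edgeR adjusted p = 0.528). TRM-like replicate 3 alone made them overlap, and without it the log2 fold change was -0.43 (edgeR adjusted p = 0.0571). The cation channel gene Trpm5 had 2 to 11 counts per sample. Its log2 fold change was 1.06 ± 0.58 (edgeR adjusted p = 0.465), and 1.35 without TRM-like replicate 3. Ascl2, Th, and Kcnq1 had too few counts to be tested. On the opposite strand, the long noncoding RNA Tspan32os, which overlaps Tspan32 over 2988 bases, fell with 79, 63, and 34 counts in TEff and 20, 4, and 7 counts in TRM-like samples (log2 fold change -2.65 ± 0.51, edgeR adjusted p = 0.0267). R74862, a long noncoding RNA that spans all of Cd81, had 19, 17, and 7 counts in TEff and 1 count in each TRM-like sample (log2 fold change -3.83 ± 0.61, edgeR adjusted p = 0.0113). The library kit keeps the strand, but whether the counting used it is not given. Without the strand, reads where exons of a gene and its antisense partner overlap could not be told apart. For the canonical transcripts of Tspan32 and Cd81, 0 of the 50-base stretches, read on either strand, occur in a transcript of another gene. Their other transcripts were not compared.

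Cd53 and Cd37 are the leukocyte-restricted members. Cd53 (chr3:106666177-106697530 on the minus strand), which is known to associate with Cd2 and CD45, was at 537, 522, and 554 CPM in TEff samples. It was at 358, 391, and 250 CPM in TRM-like samples, and the groups did not overlap. The log2 fold change was -0.69 ± 0.18, and -0.53 without TRM-like replicate 3, the lowest of the samples. It passed the threshold in 3 of the 14 alternatives, so its side of the threshold depends on the setting. Cd37 (chr7:44882849-44888546 on the minus strand), known to restrain T cell proliferation, was at 65.5, 86.6, and 70.0 CPM in TEff and 79.3, 87.9, and 50.4 CPM in TRM-like samples. The groups overlapped, with TRM-like samples both above and below those of TEff, and the log2 fold change was -0.03 ± 0.21. It turned to 0.17 without TRM-like replicate 3 and to 0.10 without TEff replicate 2.

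Cd9, Cd82, and Cd151 are the members best known for holding integrins. Cd9 (chr6:125437210-125471778 on the minus strand) was at 19.5, 22.7, and 25.2 CPM in TEff and 19.2, 20.4, and 18.5 CPM in TRM-like samples. All 6 samples lay close together and the groups overlapped, with a log2 fold change of -0.21 ± 0.14, whereas that of Cd81, which binds the same immunoglobulin-family partners, was -5.60. Cd82 was at 71.3, 79.6, and 75.6 CPM in TEff and 56.6, 65.4, and 55.7 CPM in TRM-like samples. Its groups did not overlap, but the difference was small, with a log2 fold change of -0.35 ± 0.13. Cd151 (chr7:141047256-141052572 on the plus strand) was at 10.2, 10.8, and 11.2 CPM in TEff and 15.3, 16.0, and 10.9 CPM in TRM-like samples. TRM-like replicate 3 lay among the TEff samples, and the log2 fold change of 0.39 ± 0.18 was 0.54 without it. Cd151 overlaps Polr2l on the opposite strand over 801 bases. Of the 50-base stretches of the Cd151 transcript, 28.2% also occur, read on either strand, in transcripts of other genes, mostly Polr2l.

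Cd63, the late endosome and granule member, was at the limit of detection. Its counts were 1, 1, and 0 in TEff and 5, 4, and 0 in TRM-like samples, where a count of 0 allows 0.166 CPM in TEff replicate 3 and 0.138 CPM in TRM-like replicate 3. No difference was detectable at this depth, and the exact 95% interval of the ratio of the summed counts ran from 0.824 to 37.8. Of the 50-base stretches of its transcript, 29.0% also occur, read on either strand, in the noncoding gene Gm58347, which overlaps a Cd63 pseudogene. How the authors counted reads with several matches is not given, so the level of Cd63 is uncertain. The pseudogene had no count in any sample. The compartment that Cd63 marks was followed through 16 genes of late endosomes, of the ESCRT machinery that buds vesicles inward, and of vesicle secretion, and all 16 were tested. By edgeR 0 passed the threshold, and DESeq2 and limma-voom also called 0. An unadjusted edgeR p below 0.05 was found for 4 of the 16, and for 3871 of all 26154 genes tested. With 3.01% of all genes tested past the threshold, 0 calls among 16 genes says little about the compartment. The log2 fold changes of the 16 ran from -0.08 to 0.44, with a median of 0.09. The TRM-like samples lay all above the TEff samples for 6 of the 16 and all below for 0, against 10.6% and 9.71% of all genes tested. These 6, named after their values were seen, were Tsg101, Vps28, Lamp1, Lamp2, Snap23, and Flot2. All 16 had at least 10 counts in every sample, as had 14822 of the 26154 genes tested. The shares therefore do not compare genes of like level. Of the genes with the highest level, Lamp1, which coats late endosomes and granules, was at 108, 112, and 105 CPM in TEff and 133, 147, and 128 CPM in TRM-like samples (log2 fold change 0.33 ± 0.12, edgeR adjusted p = 0.261). Rab27a, which docks granules, was at 124 ± 10.9 and 120 ± 1.41 CPM (log2 fold change -0.06 ± 0.13, edgeR adjusted p = 0.876).

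Tspan13 and Tspan31 belong to the more widely expressed members, with less known about their partners. Tspan13 was at 55.3, 56.0, and 54.3 CPM in TEff and 66.6, 83.6, and 72.2 CPM in TRM-like samples. Every TRM-like sample lay above every TEff sample, and the log2 fold change of 0.42 ± 0.13 stayed between 0.33 and 0.50 over 14 alternatives without passing the threshold. Tspan31 was at 37.3, 33.6, and 33.8 CPM in TEff and 37.5, 42.7, and 30.3 CPM in TRM-like samples. The groups overlapped with a log2 fold change of 0.08 ± 0.15, which was -0.04 without TRM-like replicate 2. Tspan31 lies tail to tail with the cell cycle kinase gene Cdk4 on the opposite strand, overlapping it over 646 bases. Of the 50-base stretches of the Tspan31 transcript, 37.9% occur in Cdk4 transcripts, with reverse complements counted as matches. Cdk4 itself was at 244, 185, and 246 CPM in TEff and 143, 146, and 243 CPM in TRM-like samples.

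To compare genes with each other, levels were divided by gene length (CPM per kb). In TEff cells the mean levels were 309 for Cd53, 39.1 for Cd82, 28.6 for Tspan13, 26.7 for Tspan32, 22.4 for Tspan31, 21.1 for Cd37, 18.3 for Cd9, 7.23 for Cd81, 5.53 for Cd151, and 0.0222 CPM per kb for Cd63. In this order the neighbors Tspan13 and Tspan32, Tspan31 and Cd37, Cd37 and Cd9, and Cd81 and Cd151 were not separate in every sample. In TRM-like cells Tspan32 moved from place 4 to place 8, at 2.47 CPM per kb, below Cd151 at 7.26 CPM per kb. Cd81, at 0.145 CPM per kb, was no longer separate from Cd63, and Tspan31 and Cd37, and Cd37 and Cd9, also ran together. Tspan13, at 38.4 CPM per kb, stood above Cd82, at 30.7 CPM per kb, in every TRM-like sample, whereas Cd82 was the higher in every TEff sample.

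The summed level of the 10 genes was 473, 469, and 491 CPM per kb in TEff and 343, 382, and 266 CPM per kb in TRM-like samples. The sums did not overlap, and Cd53 alone made up 63.9% to 65.2% of them in TEff and 53.9% to 60.0% in TRM-like samples. Tspan32 went from between 5.15% and 5.93% of the sum to between 0.682% and 0.774%. The difference in the sum is therefore for the most part a difference in Cd53 transcript, with the lowest sum in TRM-like replicate 3, the sample that stood apart.

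**Figure D3:**
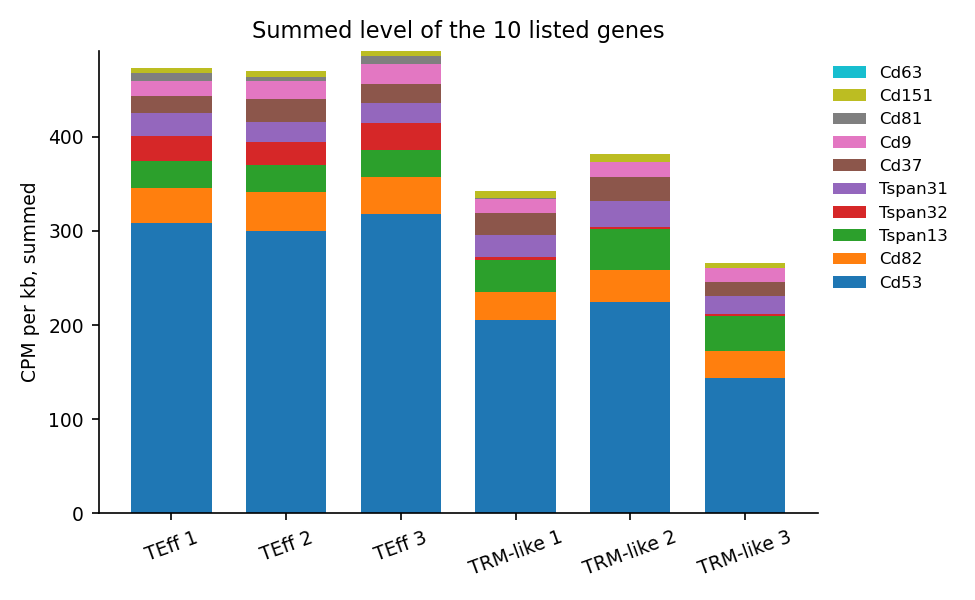
Levels of the 10 listed genes in CPM per kb, stacked for each of the 6 samples. The blue block, Cd53, fills most of each bar, the TEff bars reach 469 to 491 CPM per kb against 266 to 382 CPM per kb for TRM-like cells, and the red block of Tspan32 is visible in the TEff bars and nearly gone in the TRM-like bars.

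The other tetraspanin genes are the rest of the family, left after a list that was selected on this contrast, and their values carry the test. Of 21 found in the table, 14 were tested and 8 had at least 10 counts in every sample. By edgeR 1 rose and 1 fell, where 3.01% of all genes tested passed, with a median log2 fold change of -0.44 over the 14. Tspan9, a tetraspanin best known from platelets, rose. Its level was 0.137, 0.101, and 0.221 CPM in TEff samples, from 3, 2, and 4 counts, and 4.49, 4.37, and 3.50 CPM in TRM-like samples, from 103, 100, and 76 counts. The log2 fold change was 4.72 ± 0.35 (edgeR adjusted p = 0.000231), and the ratio of the summed counts was 27.4 with an exact 95% interval of 14.2 to 60.6 for counting error. It passed the threshold in all 13 alternatives that kept it. The summed platelet markers were between 0.557 and 0.995 CPM in TEff and between 0.507 and 0.785 CPM in TRM-like samples. Most of each sum was Itga2b, at 7 to 18 counts per sample. Pf4 and Ppbp had no count in TEff and at most 2 in a TRM-like sample, and Gp9 at most 1 in TEff and none in TRM-like samples. The source of the Tspan9 transcript was not tested. Tspan2, a tetraspanin best known from myelinating glia, fell. It was at 26.8, 28.3, and 29.5 CPM in TEff and 10.7, 13.4, and 7.75 CPM in TRM-like samples, with a log2 fold change of -1.41 ± 0.20 (edgeR adjusted p = 0.00591), and missed the threshold only without TEff replicate 3 (adjusted p = 0.0521 by edgeR).

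Among the tetraspanins that escort the protease Adam10, the so-called TspanC8 group, Tspan14 was the highest, at 47.0, 52.6, and 45.3 CPM in TEff and 49.5, 50.2, and 57.1 CPM in TRM-like samples. The groups overlapped (log2 fold change 0.11 ± 0.13, edgeR adjusted p = 0.751), as did those of Tspan5 (-0.20 ± 0.22, edgeR adjusted p = 0.728). TRM-like replicate 3 alone made the Tspan5 groups overlap, and without it the log2 fold change was -0.48 (edgeR adjusted p = 0.0313), short of the fold threshold. Adam10 itself, named here after its values were seen, was at 92.3 ± 6.78 and 82.1 ± 15.0 CPM (log2 fold change -0.17 ± 0.16, edgeR adjusted p = 0.685), with a log2 fold change of -0.33 without TRM-like replicate 3 (edgeR adjusted p = 0.0577). Tspan4, which lies 2566 bases past Cd151, was at 19.8, 19.7, and 20.9 CPM in TEff and 11.3, 13.0, and 17.7 CPM in TRM-like samples. It did not pass (log2 fold change -0.53 ± 0.18, edgeR adjusted p = 0.207), but did without TRM-like replicate 3 (-0.74, edgeR adjusted p = 0.00117). Tspan6 had the adjusted p nearest the threshold without passing it (log2 fold change -1.56 ± 0.38, edgeR adjusted p = 0.0706), and it passed in 5 of the 14 alternatives (DESeq2, no filter, the replicate block, and without TEff replicate 2 or TRM-like replicate 3). Tspan3 (-0.44), Rom1 (-0.44), and Tspan18 (-0.64), given as log2 fold changes, did not pass by edgeR either. Without TRM-like replicate 3, 4 of the other tetraspanins passed the threshold, where 14.0% of all 25478 genes tested passed.

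**Figure D4:**
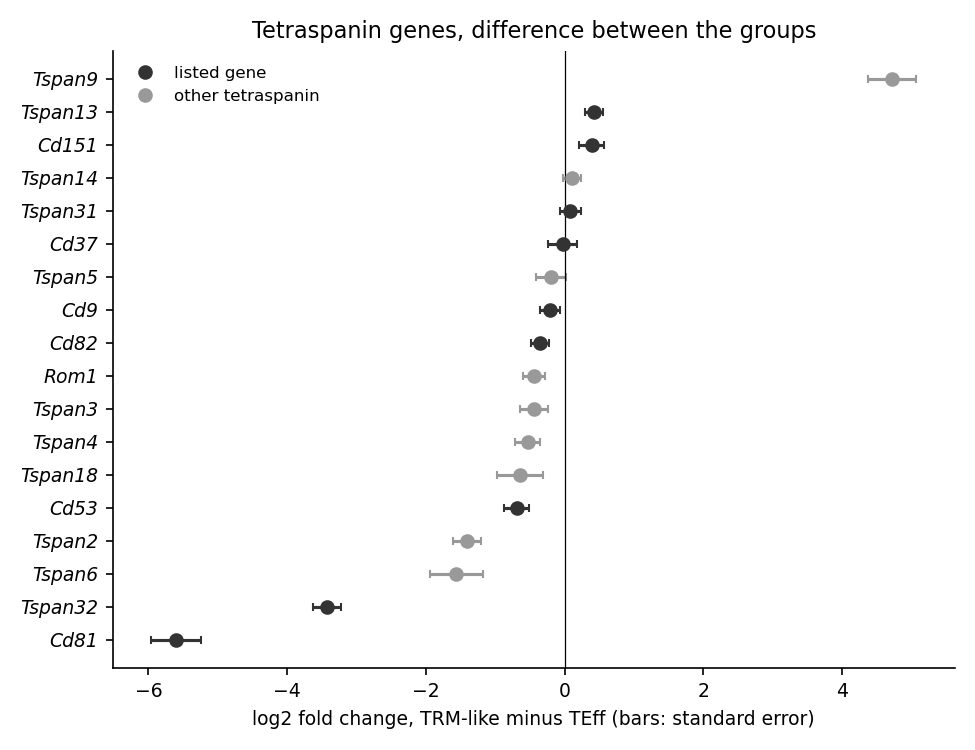
Log2 fold change (TRM-like over TEff) with its standard error for the listed genes (black; Cd63 is left out for its low counts) and the other tetraspanins that passed the threshold or had at least 10 counts in every sample (gray). Tspan9 stands alone at the right (4.72), Cd81 (-5.60) and Tspan32 (-3.43) at the left, followed by Tspan6 (-1.56) and Tspan2 (-1.41), and the rest lie between -0.69 and 0.42.

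Tetraspanins act through the proteins that they hold, and 29 genes of known partners, listed with earlier results of these data known, were followed, of which 28 were tested. By edgeR 7 passed the threshold, 2 higher and 5 lower in TRM-like cells. Over all genes tested 3.01% passed, 1.52% higher and 1.48% lower. Of the 28, 25 had at least 10 counts in every sample, as had 14822 of all 26154 genes tested. These shares therefore do not compare genes of like level. The median log2 fold change of the 28 was -0.29, against 0.02 over all genes tested. The chains of the α4β1 integrin, a partner of Cd81, Cd82, and Cd9, both fell. Itga4 was at 118, 145, and 119 CPM in TEff and 26.2, 25.1, and 28.9 CPM in TRM-like samples (log2 fold change -2.25 ± 0.14, edgeR adjusted p = 0.000151). Itgb1, the β1 chain shared by the laminin receptors that Cd151 binds, was at 591, 694, and 734 CPM in TEff and 154, 154, and 193 CPM in TRM-like samples (log2 fold change -2.01 ± 0.16, edgeR adjusted p = 0.000374). Both genes passed in each of the 14 alternatives, with the groups far apart in every sample.

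Cd8a, the coreceptor chain that Cd82 is reported to associate with, rose from 439, 448, and 422 CPM in TEff to 927, 972, and 989 CPM in TRM-like samples (log2 fold change 1.14 ± 0.13, edgeR adjusted p = 0.00219), also in each alternative. Cd8b1, its partner chain, was at 266 ± 9.86 and 375 ± 24.8 CPM and did not pass (log2 fold change 0.50 ± 0.13, edgeR adjusted p = 0.088). Igsf3, of the same EWI family of immunoglobulin-like proteins that Cd9 and Cd81 bind, rose from 19, 10, and 5 counts in TEff to 66, 60, and 69 counts in TRM-like samples (log2 fold change 2.35 ± 0.37, edgeR adjusted p = 0.0107). Its log2 fold change stayed between 2.07 and 2.86 over the alternatives that kept it. The call was lost without TEff replicate 2 or 3, with adjusted p up to 0.0732 by edgeR. Igsf8, the EWI member closest to Cd81 and named here after its values were seen, was at 18.9, 17.1, and 20.3 CPM in TEff and 11.2, 11.6, and 24.3 CPM in TRM-like samples. Replicate 3 lay above every TEff sample and the other TRM-like samples below, and the log2 fold change of -0.26 ± 0.28 (edgeR adjusted p = 0.737) was -0.73 without replicate 3 (edgeR adjusted p = 0.0016).

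Cd5, an inhibitory receptor, and Cd47, an integrin-associated protein, fell by smaller amounts. Cd5 went from 161 ± 12.1 to 87.4 ± 11.6 CPM (log2 fold change -0.88 ± 0.14, edgeR adjusted p = 0.0132). Cd47 went from 296 ± 13.4 to 181 ± 3.32 CPM (log2 fold change -0.71 ± 0.12, edgeR adjusted p = 0.0165). Each lost its call when any single TEff replicate was left out and when TRM-like replicate 1 was left out, Cd47 also without TRM-like replicate 2, with adjusted p up to 0.0982 and 0.122 by edgeR. Of the Cd53 partners, Cd2 was at 275 ± 13.1 and 176 ± 23.6 CPM (log2 fold change -0.64 ± 0.14, edgeR adjusted p = 0.0504) and passed in 5 of the 14 alternatives, and Ptprc, which encodes CD45, at 2083 ± 17.7 and 1786 ± 58.6 CPM (log2 fold change -0.22 ± 0.14, edgeR adjusted p = 0.53). The β2 integrin chains Itgal (-0.57 ± 0.13, edgeR adjusted p = 0.0544) and Itgb2 (-0.31 ± 0.13, edgeR adjusted p = 0.317) did not pass, given as log2 fold changes. Ifitm1, an antiviral protein that associates with Cd81, was at 429 ± 87.8 and 688 ± 79.2 CPM (log2 fold change 0.68 ± 0.18, edgeR adjusted p = 0.10) and passed in 4 of the 14 alternatives.

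**Figure D5:**
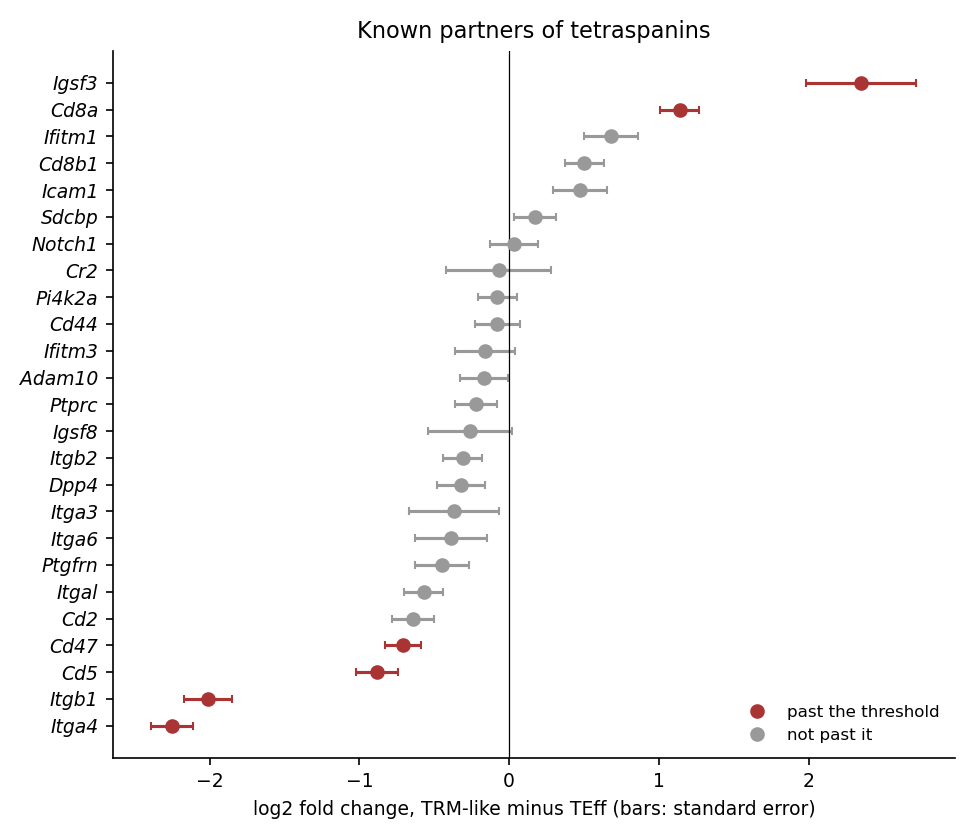
Log2 fold change (TRM-like over TEff) with its standard error for partner genes tested, without those near 0 counts; red points passed the threshold and gray points did not. Itga4 (-2.25) and Itgb1 (-2.01) lie far to the left, Igsf3 (2.35) and Cd8a (1.14) to the right, and the other partners shown lie between -0.88 and 0.68.

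Around all 10 listed genes, 64 protein-coding genes lay within 100000 bases, of which 51 were tested, and 2 passed the threshold by edgeR, both near Cd37, a share close to the 3.01% of all genes tested. Flt3l, which encodes a growth factor of dendritic cells, rose from 16.0 ± 3.01 to 33.4 ± 7.74 CPM (log2 fold change 1.06 ± 0.21, edgeR adjusted p = 0.0298). Dkkl1 fell from 25.2 ± 1.59 to 15.0 ± 2.01 CPM (log2 fold change -0.74 ± 0.15, edgeR adjusted p = 0.0302). Leaving out any single sample other than TRM-like replicate 3 ended both calls, with 0 neighbors passing, while 12 passed without replicate 3, where 14.0% of all genes passed. Both lie on the same side of Cd37, whose own groups overlapped. Near Cd151, the metabolic gene Taldo1 was at 110 ± 8.43 and 168 ± 17.5 CPM (log2 fold change 0.61 ± 0.14, edgeR adjusted p = 0.0504) and passed in 9 of the 14 alternatives.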

How the data were processed

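RNA of 6 OT-I CD8+ T cell samples, 3 TEff and 3 TRM-like by their labels, was sequenced from TruSeq Stranded Total RNA libraries on a NovaSeq X Plus. Per the study's methods, reads were trimmed (cutadapt 4.8), then aligned and assigned to genes by Rsubread, with GENCODE gene models on GRCm39. The authors deposited raw counts per gene without normalization, beside a column with each gene's length in bases. The strand setting, the counting of multiply mapped reads, and the batch that was removed for plots are not given in the sources used here. The submitters' processing notes also name DESeq2 1.40.2.

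The 10 genes, the other gene lists, and the tests were chosen with earlier results of these data known. Symbols and places came from a later GENCODE annotation of GRCm39, in which 56620 of 57126 genes were found and 506 were not. Of the tetraspanin names sought, Tspan19 was not found. A gene needed 1 count or more in 3 samples or more to be tested. The test was the quasi-likelihood F test of edgeR 4.0.16 with TMM scaling and no block, run in R 4.3.3 with Benjamini-Hochberg adjustment over 26154 genes. CPM use effective library sizes, and a standard error is the log2 fold change divided by the square root of F. Genes named in the text are the listed tetraspanins, the other tetraspanins past the threshold or at 10 counts or more throughout, and the partner, vesicle, and neighbor genes past the threshold with at most 6 further genes of each by mean level, apart from those said to be chosen after their values were seen. Adam10, Igsf8, the genes around Tspan32 and Cd81, and the vesicle genes whose groups did not overlap were named in view of their values. Alternatives were DESeq2 1.42.0, limma-voom (limma 3.58.1), other scalings and filters, a replicate block, and each sample left out. Counting intervals are exact (Poisson, or Clopper-Pearson for ratios, 95%), and a count of 0 was taken to allow 3 counts. A gene of the partner list that passed the threshold is not reported here.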

Additional observations from a re-analysis of the deposited data

How the results depend on the processing

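The number of genes past the threshold over all genes tested, 786, was 1256 with DESeq2, 1868 with no filter, 2034 with the replicate block, and between 263 and 3579 with 1 sample left out, the highest without TRM-like replicate 3. Of the listed tetraspanins, 1 passed where at least 10 counts were required in every sample, since that filter drops Cd81, and likewise 1 of the other tetraspanins, since it drops Tspan9. With 1 sample left out, between 1 and 4 other tetraspanins, between 4 and 11 partner genes, and between 0 and 12 neighbor genes passed. Neighbor genes past the threshold numbered 4 with DESeq2, 5 with no filter, and 6 with the replicate block. Apart from the filter named above, the causes were not tested. No called gene among the listed tetraspanins, other tetraspanins, partners, and protein-coding neighbors turned its direction under any alternative that kept it. For the remaining called genes, Tspan32os and R74862 among them, directions were not compared. The count of vesicle genes past the threshold was 0 under each alternative. Whether the replicate numbers pair the samples is not given. Over 14822 genes, the correlation of the deviations of same-numbered samples came to -0.28 in pair 1, 0.298 in pair 2, and 0.38 in pair 3. These values of mixed sign cannot decide it. Depth limits Cd63 in every sample, Cd81 in TRM-like samples, and Tspan9 in TEff samples, where counts were 6 or fewer.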
